A study of Homo sapiens with 3 samples.

Results

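The transcripts described here are the lncRNAs that the authors listed in MDA-MB-231 cells without a database name, that is, with only the identifier that transcript assembly gave them. They were chosen by an empty database name, with each transcript used once. Those in 4 regions (the ribosomal DNA of chromosome 21, 2 stretches of chromosome 17 and 1 short stretch of chromosome 6) and at 6 further loci were left out by rule. This gave 103 transcripts at 96 loci, of 334 listed transcripts at 293 loci. Of the others, 218 at 190 loci carried a database name and served as the comparison, and 13 had no name but lay in the left-out regions and loci. The rule names no level or ratio, but the members were chosen with earlier results of these data known.

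MDA-MB-231 is a human cell line of triple negative breast cancer with mutant p53, and all 3 libraries came from cells transfected with plasmids for Flag-tagged FAK (focal adhesion kinase). RNA immunoprecipitation, RIP, retrieves the RNA that stays with a protein, and here it was done with an anti-FLAG antibody (Flag-FAK) and with normal mouse IgG (IgG), to find lncRNAs retrieved with FAK above the IgG control. The remaining library was 10% of the starting RNA (Input). Each condition had 1 library, so neither an SD nor a p-value can be given, and each comparison is one between these libraries rather than between conditions. The line's protein-coding markers were not analysed here, the tables used being of lncRNAs. All 334 transcripts together had 2056854 reads in Input against 109658 in IgG and 48763 in Flag-FAK, of which 99.3%, 96.7% and 97.2% lay on ribosomal DNA and 7SK. The 103 unnamed transcripts held 1673, 1499 and 544 reads in the same order. These are small numbers, and they set how precisely any single transcript can be described.

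Transcript assembly joins overlapping reads into models and calls a model new when it matches no transcript in a reference. Such models can be long noncoding RNAs of their own, antisense transcripts, pieces of an intron or of a gene's end, pseudogene RNA, or repeats. Coding potential calculators then score each model by the quality of its reading frames and by its codon and hexamer use, and models scored as noncoding are kept as lncRNAs. FAK itself is a cytoplasmic tyrosine kinase that carries integrin signals at focal adhesions.

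The sequences at a few members are given as examples of places these transcripts come from, not as typical of the set. No genome was at hand to read the transcripts themselves, so mature miRNAs and gene start windows from RefSeq (GRCh38.p14, the build family of the files) are shown in their place. A transcript at chr19:13836536-13842910 on the minus strand lies on MIR23AHG, the host gene of the miR-23a, miR-27a and miR-24 cluster, whose products repress many messages by pairing through their seed. Both mature arms of miR-23a lie inside the unnamed transcript, and they are shown in RNA letters, 5′ to 3′, with the seed (bases 2 to 8) in capitals.
miR-23a-3p: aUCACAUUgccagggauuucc
miR-23a-5p: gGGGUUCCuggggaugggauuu
The next arms of the cluster lie past its end, by 28 bases for miR-27a-5p, 69 for miR-27a-3p, 189 for miR-24-2-5p and 226 for miR-24-3p. Those of miR-27a are shown because the listed transcript stops between them and miR-23a.
miR-27a-3p: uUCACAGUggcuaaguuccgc
miR-27a-5p: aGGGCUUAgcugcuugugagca
The 4 seeds differ from one another. Levels are given in FPKM, the reads of a transcript per unit of its length and of library size. The transcript had 22 reads in Input (7.28 FPKM), 3 in IgG (1.07 FPKM) and 0 in Flag-FAK, where a count of 0 allows up to 3 reads. Its Flag-FAK level was thus not measurably different from that in IgG at this depth.

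Other members begin or end at the start of a protein-coding gene. In the 4 windows below, each from 250 bases before to 50 bases after a gene's start and read on the gene's strand, capitals mark the bases that also lie inside the unnamed transcript. The first pair are genes whose unnamed transcript runs on the opposite strand. EGFR encodes the receptor for epidermal growth factor, and the transcript at chr7:55019025-55019545 on the minus strand shares 42 bases with its window (chr7:55018767-55019066, plus strand). That transcript also overlaps the start window of LOC105375284 on its own strand. FOXJ2 encodes a forkhead transcription factor, and the transcript at chr12:8032585-8033500 on the minus strand shares 181 bases with its window (chr12:8032466-8032765, plus strand).
EGFR: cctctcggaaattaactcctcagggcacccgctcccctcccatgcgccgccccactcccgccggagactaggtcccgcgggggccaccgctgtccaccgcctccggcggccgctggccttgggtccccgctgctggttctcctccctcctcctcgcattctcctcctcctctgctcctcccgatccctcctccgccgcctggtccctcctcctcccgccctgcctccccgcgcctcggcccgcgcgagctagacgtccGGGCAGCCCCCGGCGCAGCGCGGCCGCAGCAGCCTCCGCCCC
FOXJ2: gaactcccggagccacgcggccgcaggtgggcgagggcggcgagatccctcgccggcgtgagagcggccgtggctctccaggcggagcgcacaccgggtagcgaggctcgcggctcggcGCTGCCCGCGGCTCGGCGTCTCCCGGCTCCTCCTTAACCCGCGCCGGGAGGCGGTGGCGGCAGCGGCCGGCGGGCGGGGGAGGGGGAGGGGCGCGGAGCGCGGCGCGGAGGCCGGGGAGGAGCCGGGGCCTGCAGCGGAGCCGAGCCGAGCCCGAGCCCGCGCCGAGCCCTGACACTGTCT
The second pair are genes with the unnamed transcript on their own strand. VAMP3 encodes a vesicle SNARE of the endosome, and the transcript at chr1:7771306-7772410 shares 40 bases with its window (chr1:7771046-7771345, plus strand). CASP2 encodes a caspase, a protease of apoptosis, and the transcript at chr7:143288384-143289340 shares 17 bases with its window (chr7:143288101-143288400, plus strand).
VAMP3: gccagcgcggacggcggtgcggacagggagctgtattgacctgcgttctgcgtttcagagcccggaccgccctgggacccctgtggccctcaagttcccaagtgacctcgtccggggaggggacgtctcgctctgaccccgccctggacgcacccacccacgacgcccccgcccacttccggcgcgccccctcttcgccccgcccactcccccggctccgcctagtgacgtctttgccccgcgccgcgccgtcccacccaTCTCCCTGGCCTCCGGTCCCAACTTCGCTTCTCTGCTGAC
CASP2: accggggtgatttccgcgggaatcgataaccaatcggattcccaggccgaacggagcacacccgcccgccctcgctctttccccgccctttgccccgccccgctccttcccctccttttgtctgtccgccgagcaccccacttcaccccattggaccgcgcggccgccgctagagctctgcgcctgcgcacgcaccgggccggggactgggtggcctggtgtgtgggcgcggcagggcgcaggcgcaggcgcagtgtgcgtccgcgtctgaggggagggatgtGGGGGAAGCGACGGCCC
In reads, the EGFR transcript had 13 in Input and 0 in both precipitates, and the FOXJ2 transcript had 16 in Input and 0 in both precipitates. The VAMP3 transcript had 56 reads in Input against 15 in IgG and 4 in Flag-FAK, and the CASP2 transcript 78, 8 and 0. These 4 were chosen after their values were seen and differ in Input reads. Among the 33 members on the strand of their protein-coding gene 9 had reads in IgG and 5 in Flag-FAK, and among the 18 on the opposite strand 4 and 2. Over all members, 18 of 103 (17.5%) overlapped the start window of a protein-coding gene on either strand, close to 34 of 218 named transcripts (15.6%).

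By position, the unnamed transcripts lay on protein-coding genes more often than the named ones and on known lncRNA genes less often. A protein-coding gene of RefSeq overlapped 65 of 103 members (63.1%), against 91 of 218 named transcripts (41.7%), and 48 members lay wholly inside one. A lncRNA gene of RefSeq overlapped 23 members (22.3%) and 158 named transcripts (72.5%). A pseudogene overlapped 17 members (16.5%) and 42 named transcripts (19.3%). No RefSeq gene at all lay at 17 members (16.5%) and at 7 named transcripts (3.21%). Overlap was judged from the whole span, introns included, since exons are not given, so a transcript on a gene can lie in its exons or in an intron. Database names are those of catalogued lncRNAs, so the count on lncRNA genes is not independent of how the sets were formed.

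Unnamed transcripts on protein-coding genes lay more often on the gene's strand than opposite to it. Of the 65 on protein-coding genes, 33 shared the gene's strand, 18 lay opposite, 2 met genes on both strands and 12 met a gene whose strand was not in the table used. As a share of all members, 32.04% were on the same strand and 17.5% opposite, against 13.3% and 17.4% of the named transcripts. The opposite-strand share was therefore alike in both sets, and the same-strand share was the one that differed. The 33 same-strand members had 815 reads in Input against 111 in IgG and 21 in Flag-FAK, and the 18 opposite-strand members had 136, 23 and 10. The same-strand ones include those on H2AZ2, CASP2, ZCCHC14, VAMP3, MED1, SIPA1L2 and MYPN. Whether counting used the strand is not given in the sources used here, and reads of a transcript cannot be told apart from those of messenger or precursor RNA of the gene it lies on. Members on the minus strand made up 65.0%, and named transcripts 65.6%.

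**Figure D1:**
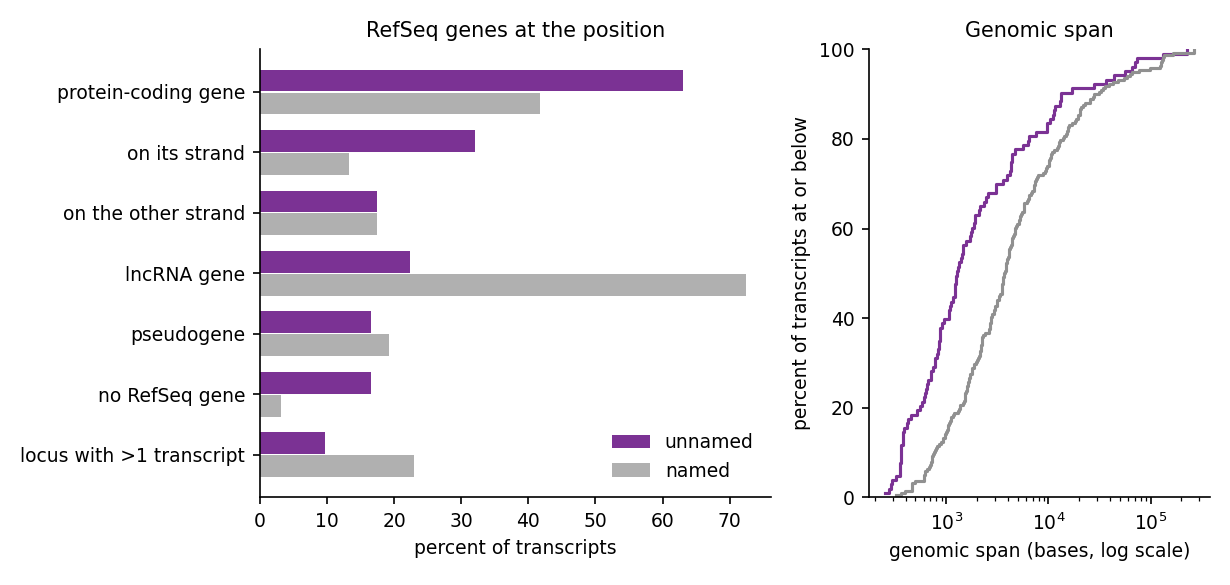
Left, percent of the 103 unnamed and 218 named transcripts whose span overlaps each kind of RefSeq gene, with protein-coding genes also split by strand, and percent at loci with more than 1 listed transcript. Right, percent of transcripts at or below each genomic span on a log axis. Unnamed transcripts overlapped protein-coding genes in 63.1% and lncRNA genes in 22.3%, and their span curve lies to the left of that of named transcripts.

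The unnamed transcripts were also compact. Their genomic span had a median of 1278 bases, from 250 to 224409, against 3719 bases for named transcripts. Under 1000 bases were 41 members (39.8%) and 32 named transcripts (14.7%). Over 10000 bases were 17 members (16.5%) and 57 named transcripts (26.1%). A long span did not go with a long counted length. The number of reads per unit of FPKM rises with the length counted, and it was 3.27 in Input (median of 13) for members over 10000 bases and 3.55 (median of 31) for members under 1000 bases, whose median spans were 27634 and 617 bases. Over all members with at least 5 Input reads it was 3.53 (82 transcripts), against 4.57 for named ones (186 transcripts).

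Few loci held more than 1 unnamed transcript. Members at a locus with several listed transcripts numbered 10 (9.71%), against 50 named transcripts (22.9%). These 10 were 6 transcripts of a locus at chr2:32916229-32916604, 2 at SH3D19, which encodes an adaptor with SH3 domains, and 2 at SPIN1, which encodes a reader of histone methylation. Only 1 locus in the list held both named and unnamed transcripts, and it gave none of these 10. By chromosome, members were spread much as the named transcripts. Chromosome 2 had the most, with 9 transcripts, but these came from 4 loci. Chromosomes 7, 8 and 17 had 8 each, chromosome 1 had 7 (6.80%, against 14.2% of named transcripts), and chromosome 15 had none, against 6 named transcripts.

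All 3 coding scores were on the noncoding side for every member, as for every named transcript, which the authors' selection fixes. The CPC score, which is negative for noncoding sequence, had a median of -1.01 for members and -1.01 for named transcripts, and it was below -1 in 52.4% and 52.3%. The CNCI score had a median of -0.061 against -0.045. The CPAT coding probability had a median of 0.0169 against 0.0321. Members were thus close to named transcripts on the CPC score. A larger share of members lay at the low end of CPAT and at the highest CNCI value, although their CNCI median was the lower one. With 1 transcript per locus the members' CPAT median was 0.0212. A CPAT probability under 0.01 was found for 41 members (39.8%) and 62 named transcripts (28.4%). The highest CNCI value listed, just below 0, was shared by 20 members (19.4%) and 19 named transcripts (8.72%), among them all 6 transcripts of the chromosome 2 locus. At the other end, a CPAT probability of at least 0.2 was found for 7 members (6.80%) and 23 named transcripts (10.6%).

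Single members at the ends of the scores had recognisable places. The highest CPAT probability, 0.360, belonged to a transcript at chrX:1378238-1378813 on the minus strand, opposite to IL3RA, which encodes the interleukin 3 receptor. It also overlaps the lncRNA gene LOC101928032 on its own strand, and it had 12 reads in Input only. Next was a transcript at RBM34 with 0.336 and 5 reads in Input only. The third was a transcript at chr1:96678819-96679629 on RPL7P9, a pseudogene of the ribosomal protein gene RPL7, with 0.322 and 57 reads in Input only. The lowest probability, 2.94e-11, belonged to the MIR23AHG transcript shown above. On the CPC score, the least negative member, -0.069, lay opposite to GNB1L, with 14 reads in Input only. On CNCI the most negative, -0.54, lay on PHF20, with 7 reads in Input only.

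**Figure D2:**
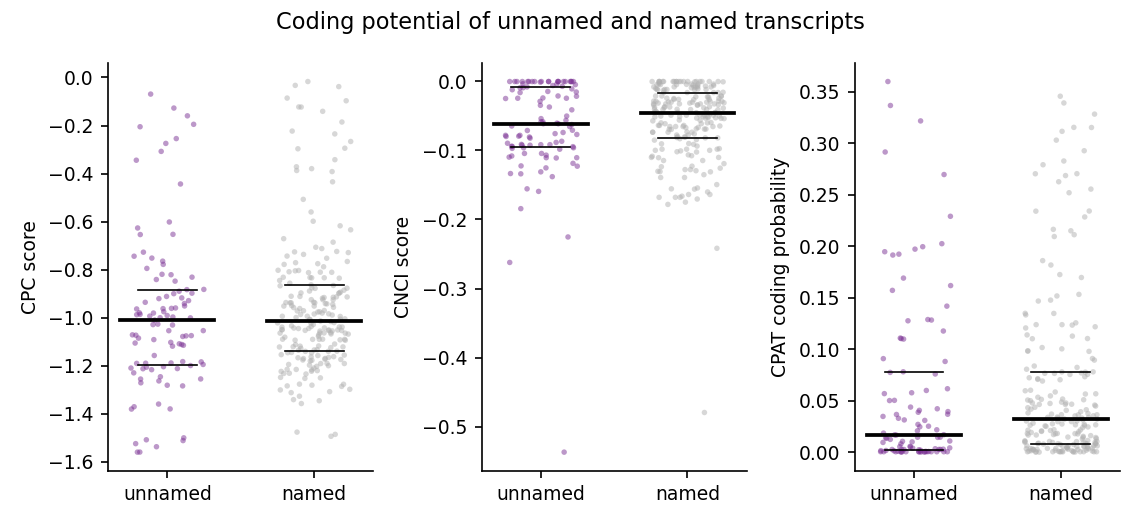
CPC score, CNCI score and CPAT coding probability of the 103 unnamed and 218 named transcripts, each point 1 transcript. Thick lines are medians and thin lines quartiles. The medians lie at -1.01 and -1.01 for CPC, -0.061 and -0.045 for CNCI, and 0.0169 and 0.0321 for CPAT.

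Before levels are compared, the list's own floor has to be stated. The highest FPKM that a member reached in any of the 3 libraries was at least 1.83 for 102 of the 103, and 0 for the other. Among all 334 transcripts, 327 reached 1.8 FPKM in a library. The list thus appears to hold transcripts that passed a level near this in at least 1 library, although no such filter is given in the sources used here. A transcript at 0 or below that level in Input could then be listed only if it was high in a precipitate. The ratio to Input among such members is then set or pushed up by the listing. Of the members, 79 reached 1.8 FPKM in Input alone, 11 in IgG alone, 5 in Flag-FAK alone, 4 in Input and IgG, 2 in both precipitates and 1 in all 3 libraries.

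Most unnamed transcripts were detected in Input, and fewer in the precipitates, which had fewer reads. Outside ribosomal DNA and 7SK, all listed transcripts had 13782, 3669 and 1351 reads in Input, IgG and Flag-FAK. Members held 1673, 1499 and 544 of these, in the precipitates mostly at 3 loci. Outside those loci the other 95 members held 1642, 182 and 57. At least 1 read was counted in Input for 88 of 103 (85.4%), beside 87.1% of all 334 transcripts and 89.9% of named ones. In IgG the members detected were 29 (28.2%), beside 44.9% of all and 52.3% of named transcripts. In Flag-FAK they were 16 (15.5%), beside 20.1% of all and 20.2% of named transcripts. The gap to named transcripts was widest in IgG. Without the left-out regions and loci, 50% of named transcripts were detected in IgG and 18.75% in Flag-FAK. Reads in Input only were found for 66 members (64.1%), against 89 named transcripts (40.8%). Reads in Input and IgG but not Flag-FAK were found for 10 members (9.71%), against 64 named transcripts (29.4%). Reads in all 3 libraries were found for 7 members (6.80%), against 31 named transcripts (14.2%). Of the remaining 20 members, 10 had reads in IgG only, 5 in Input and Flag-FAK, 2 in Flag-FAK only, 2 in both precipitates without Input, and 1, at WFS1, in none.

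Members also had fewer reads in Input, and the gap in IgG remained within classes of Input reads. The highest class has no upper limit, and the named transcripts include those of the left-out regions and loci, so Input level is only roughly matched. Among detected transcripts the median was 11 reads for members and 15 for named ones. With 1 to 9 Input reads, 2 of 39 members (5.13%) and 22 of 70 named transcripts (31.4%) had reads in IgG. With 10 to 29 Input reads these were 9 of 38 (23.7%) and 37 of 81 (45.7%), and with at least 30, 6 of 11 (54.5%) and 36 of 45 (80.0%). In each of these 3 classes the members were thus less often found in IgG. The apparent listing floor also acts above 0 Input reads. With 1 to 9 Input reads, the 2 members seen in IgG, on TEX14 and SKP2, had 0.896 and 0.0766 FPKM in Input. They reached the floor only in a precipitate. Some named transcripts also lay below the floor in Input and above it in IgG. How far the listing sets the gap in IgG was not tested. With 0 Input reads, where nearly all were listed through a precipitate, 12 of 15 members and 19 of 22 named transcripts had reads in IgG, and 4 of 15 (26.7%) and 1 of 22 (4.55%) in Flag-FAK. In Flag-FAK the other classes gave 4 of 39 (10.3%) against 9 of 70 (12.9%), 3 of 38 (7.89%) against 13 of 81 (16.05%), and 5 of 11 (45.5%) against 21 of 45 (46.7%), with little difference at 1 to 9 and at 30 or more Input reads. The 4 members include transcript 6 of the chromosome 2 locus and those at HRH1 and SKP2, which reached the floor in Flag-FAK alone. Transcripts are not replicates of a condition and no test was made of these shares, and what sets them was not tested.

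**Figure D3:**
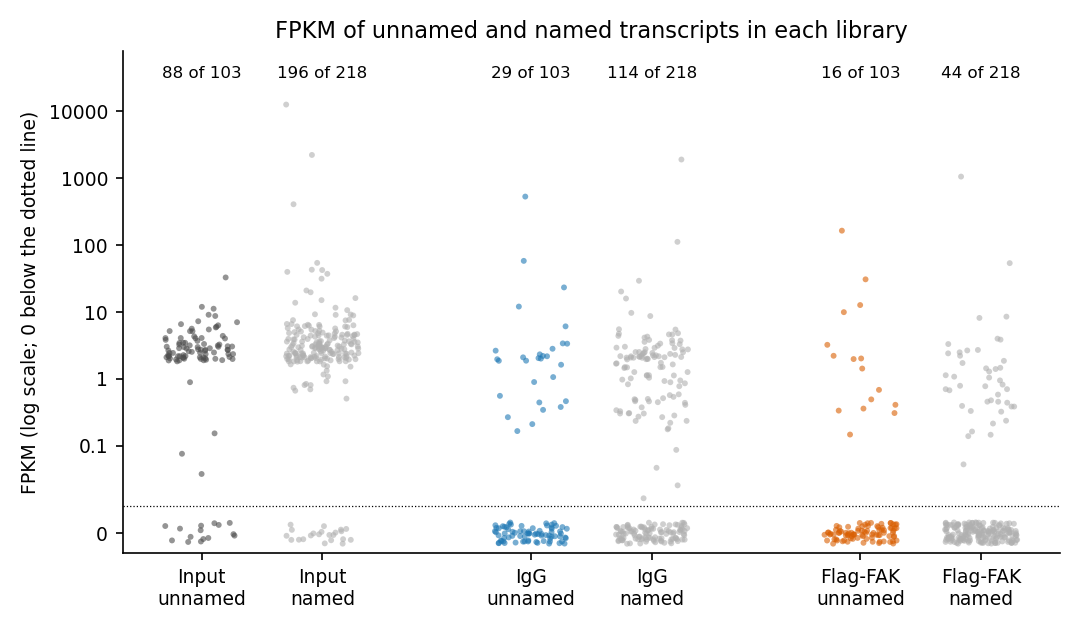
FPKM of each unnamed (coloured) and named (grey) transcript in Input, IgG and Flag-FAK on a log axis, with transcripts at 0 below the dotted line and the number above 0 at the top. Of the unnamed transcripts 88, 29 and 16 of 103 were above 0, and most Input values lie just above 1.8 FPKM.

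Levels in Input were low and close together, with most bounded from below by the apparent listing floor near 1.8 FPKM. The median over the 103 was 2.49 FPKM, with quartiles of 1.97 and 3.47, against 2.84 FPKM for named transcripts. The highest members in Input in FPKM were those on H2AZ2 (32.8), a tRNA gene cluster of chromosome 1 (11.9), RPL7P9 (11.2), CASP2 (9.10), SIPA1L2 (8.72) and MIR23AHG (7.28). The highest named level in Input outside the left-out regions was 2211 FPKM, far above any member. Reads were spread over many members in Input, where the 3 with the most reads held 27.1%, but not in the precipitates, where the top 3 held 85.1% in IgG and 84.4% in Flag-FAK.

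The H2AZ2 transcript was the main unnamed RNA of the Input. It lies at chr7:44821209-44834209 on the minus strand, the strand of H2AZ2, which encodes a histone H2A.Z variant. It was counted at 247 reads in Input (32.8 FPKM), 43 in IgG (6.11 FPKM) and 5 in Flag-FAK (0.688 FPKM). On the FPKM scale Input lay above IgG and IgG above Flag-FAK, but scaled to equal totals over all listed transcripts the IgG to Input ratio was 1.14 (0.807 to 1.58), and without ribosomal DNA and 7SK in the totals 0.627 (0.442 to 0.869), so the order of those libraries depends on the scale. Its Flag-FAK to IgG ratio was 0.113, with an exact 95% Clopper-Pearson interval of 0.0348 to 0.284, which like all intervals here covers only the error of counting, and PCR copies of a molecule count as separate reads. Without ribosomal DNA and 7SK in the totals it was 0.306 (0.0945 to 0.770).

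Other members with many Input reads behaved unequally in the precipitates. A transcript at chr20:62621324-62623392 on the minus strand, with no RefSeq gene, had 129 reads in Input against 7 in each precipitate, a Flag-FAK to IgG ratio of 0.975 (0.292 to 3.26). Transcripts on ZCCHC14, which encodes a zinc finger protein, and on RPL7P9 had 69 and 57 reads in Input but 0 in both precipitates. A transcript on MED1, a subunit of the Mediator complex, at chr17:39404414-39405845 had 53 reads in Input against 26 in IgG and 6 in Flag-FAK, giving a ratio of 0.227 (0.0764 to 0.564). So transcripts of like Input reads ranged from 0 to 26 reads in IgG. For VAMP3 the Flag-FAK to IgG ratio was 0.260 (0.0628 to 0.815), and with TPM totals without ribosomal DNA and 7SK the intervals of both VAMP3 (0.170 to 2.21) and MED1 (0.207 to 1.53) included 1. The transcript at chr1:161447403-161455039, which spans 6 tRNA genes, had 30 reads in Input but 0 in IgG and Flag-FAK, as had the SH3D19 pair with 29 reads each, which overlap each other, and SIPA1L2 with 27. A transcript at chr11:1995983-1996685 on the plus strand lies inside the protein-coding gene MRPL23 and opposite to H19, the imprinted lncRNA gene. It had 15 reads in Input against 2 in IgG and 0 in Flag-FAK.

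In the precipitates, 3 loci held nearly all reads of the unnamed transcripts. Together these loci, on chromosomes 20, 14 and 2, had 87.9% of the members' reads in IgG and 89.5% in Flag-FAK, but 1.85% in Input. Without them, the other 95 members had 1642 reads in Input against 182 in IgG and 57 in Flag-FAK. All 3 loci were seen in both precipitates.

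The first is a short transcript at chr20:29299450-29299804 on the minus strand, at the pseudogene LOC110467538. It had 0 reads in Input, 1086 in IgG (528.7 FPKM) and 345 in Flag-FAK (163.8 FPKM). Both precipitates were far above Input, by at least 390-fold for IgG and at least 119-fold for Flag-FAK, with 0 Input reads taken as 3. Between the precipitates the ratio was 0.310 (0.274 to 0.350), lower in Flag-FAK. The second, at chr14:34546721-34556375 on the plus strand, spans RNU1-27P and RNU1-28P, copies of the gene for U1, the small nuclear RNA that pairs with the start of introns, and lies opposite to the lncRNA gene LOC105370449. It had 0 reads in Input, 143 in IgG (58.0 FPKM) and 78 in Flag-FAK (30.7 FPKM), a ratio of 0.530 (0.397 to 0.703). Reads of near-identical copies cannot be told apart from those of the U1 copies at this position. Neither transcript was higher in Flag-FAK than in IgG on the FPKM scale. With TPM totals without ribosomal DNA and 7SK the first remained lower at 0.841 (with plain TPM 0.709, 0.626 to 0.801), and the second became higher (1.44, 1.08 to 1.91).

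The third is the locus of 6 overlapping transcripts at chr2:32916229-32916604 on the minus strand, where RefSeq has no gene. In the files' order the 6 had 7, 10, 13, 0, 0 and 1 reads in Input. In IgG they had 0, 0, 10, 46, 32 and 0 reads, and in Flag-FAK 0, 0, 36, 0, 0 and 28. Each library thus put its reads on other transcripts of the locus, with transcript 3 the only one seen in all libraries. For transcript 6 the counting interval of the Flag-FAK to IgG ratio began at 6.92 (at least 9.09-fold with 0 IgG reads set to 3 and the Flag-FAK reads taken as counted), and transcript 3 had a ratio of 3.74 (1.82 to 8.44). Transcripts 4 and 5 went the other way, with upper ends of 0.0813 and 0.119. Over the whole locus there were 31 reads in Input (11.95 FPKM), 88 in IgG (38.7 FPKM) and 64 in Flag-FAK (22.7 FPKM), a ratio of 0.585 (0.417 to 0.816). The sum lay below 1 although its transcripts lay on both sides. With TPM totals without ribosomal DNA and 7SK it was 1.59 (1.13 to 2.21), so its direction turns with the scale. Their positions nearly coincide, and the first pair share both ends, so reads divided among the 6 are not independent measurements.

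**Figure D4:**
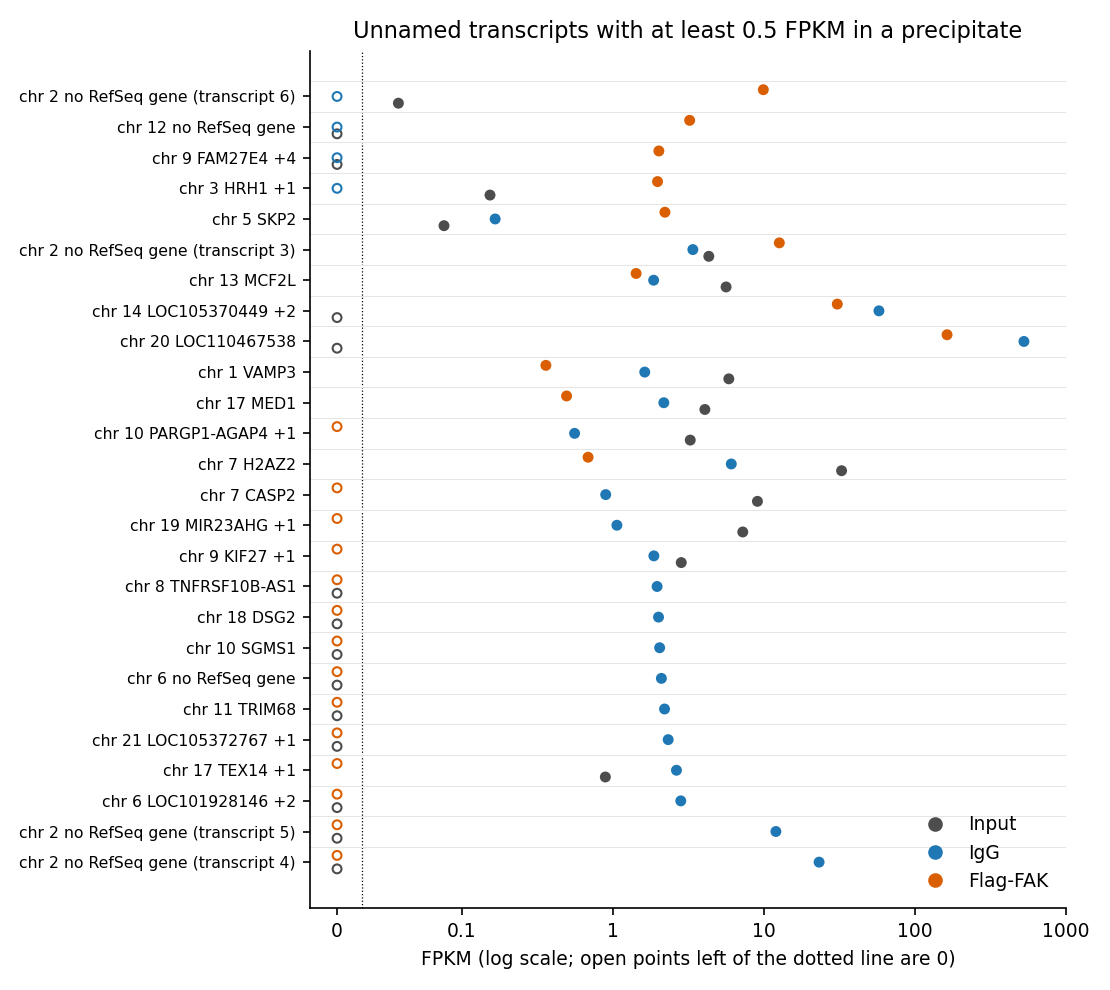
FPKM in Input, IgG and Flag-FAK (log axis) of 26 of the 27 unnamed transcripts with at least 0.5 FPKM in either precipitate, ordered by their Flag-FAK to IgG ratio and labelled by chromosome and the first RefSeq gene at the position (+ gives the number of further genes). Open points left of the dotted line are 0. Transcripts on chromosomes 20 and 14 stand far to the right in both precipitates and at 0 in Input, and transcripts of the chromosome 2 locus stand at both ends of the order.

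Enrichment in Flag-FAK over IgG was taken as the ratio of FPKM with 0.1 added to each, among transcripts with at least 0.5 FPKM in 1 of the 2 precipitates. Only 27 of the 103 members could be counted this way, and since most passed through the precipitate where they were high, most had to differ. Above 2-fold were 6 (22.2%), where 14.1% of all counted transcripts were above 2-fold and 11 of 100 named ones. Below 0.5-fold were 19 (70.4%), where 77.0% of all counted transcripts were, and 80 of 100 named ones. The other 2, opposite to MCF2L and at the U1 copies, lay between. Of the 6, 4 had 0 reads in IgG, and of the 19, 15 had 0 reads in Flag-FAK. By counting interval, 3 of the 6 lay above 1 and 1 above 2, and 11 of the 19 lay below 1 and 5 below 0.5. The shares lay near those of all transcripts, with few members behind them. With each library scaled to the same total over the listed transcripts other than ribosomal DNA and 7SK (TPM), the minimum of 0.5 no longer left out transcripts with reads, 36 were counted, and 11 were above 2-fold and 21 below 0.5-fold. With that scaling applied to the same 27 transcripts, 7 were above 2-fold and 16 below 0.5-fold.

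The 6 transcripts above 2-fold rested on 5 to 36 reads in Flag-FAK. Transcripts 3 and 6 of the chromosome 2 locus had the most, but the locus as a whole did not stand above IgG on the FPKM scale. The next was a transcript at chr12:52164316-52164952 on the plus strand, with no RefSeq gene, which had 7 reads in Flag-FAK (3.24 FPKM) and 0 in IgG and in Input. Its ratio to IgG had an interval from 1.40, and it was the only member outside the chromosome 2 locus with an interval above 1 on the FPKM scale. A transcript at chr9:61856770-61922886, a region with FAM27E4 and 4 further RefSeq genes, had 5 reads in Flag-FAK and 0 in the other libraries. A transcript at chr3:11207240-11210336 on the minus strand lies opposite to HRH1, which encodes the histamine H1 receptor. It also overlaps the lncRNA gene LOC102723663 on its own strand, and had 5 reads in Flag-FAK against 0 in IgG and 1 in Input. The counting intervals of the chr9 and chr3 transcripts against IgG began at 0.893 on the FPKM scale, so a difference was not detectable at this depth. With TPM totals without ribosomal DNA and 7SK they began at 2.42. The last, at chr5:36168708-36168984, lies on SKP2, which encodes the substrate-binding part of a ubiquitin ligase of the cell cycle. It had 5 reads in Flag-FAK (2.22 FPKM) and 1 each in IgG (0.167 FPKM) and Input (0.0766 FPKM). Its Flag-FAK to IgG ratio from reads was 4.87 (0.545 to 230.4), and from FPKM with 0.1 added 8.69. With TPM totals without ribosomal DNA and 7SK the ratio from reads was 13.2 (1.48 to 625).

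The value of a single read shows a further limit. At SKP2 the 1 read of Input stood for 0.0766 FPKM and the 5 reads of Flag-FAK for 2.22 FPKM, and in transcript 6 of the chromosome 2 locus 1 read stood for 0.0382 FPKM in Input and 28 for 9.95 FPKM in Flag-FAK. Where both libraries had at least 5 reads, a read was worth nearly the same FPKM in each pair of libraries (medians of 0.974 for Flag-FAK over IgG, 1.04 for Flag-FAK over Input and 1.08 for IgG over Input). The whole numbers listed may therefore be rounded estimates, and counts of 1 are the least certain.

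**Figure D5:**
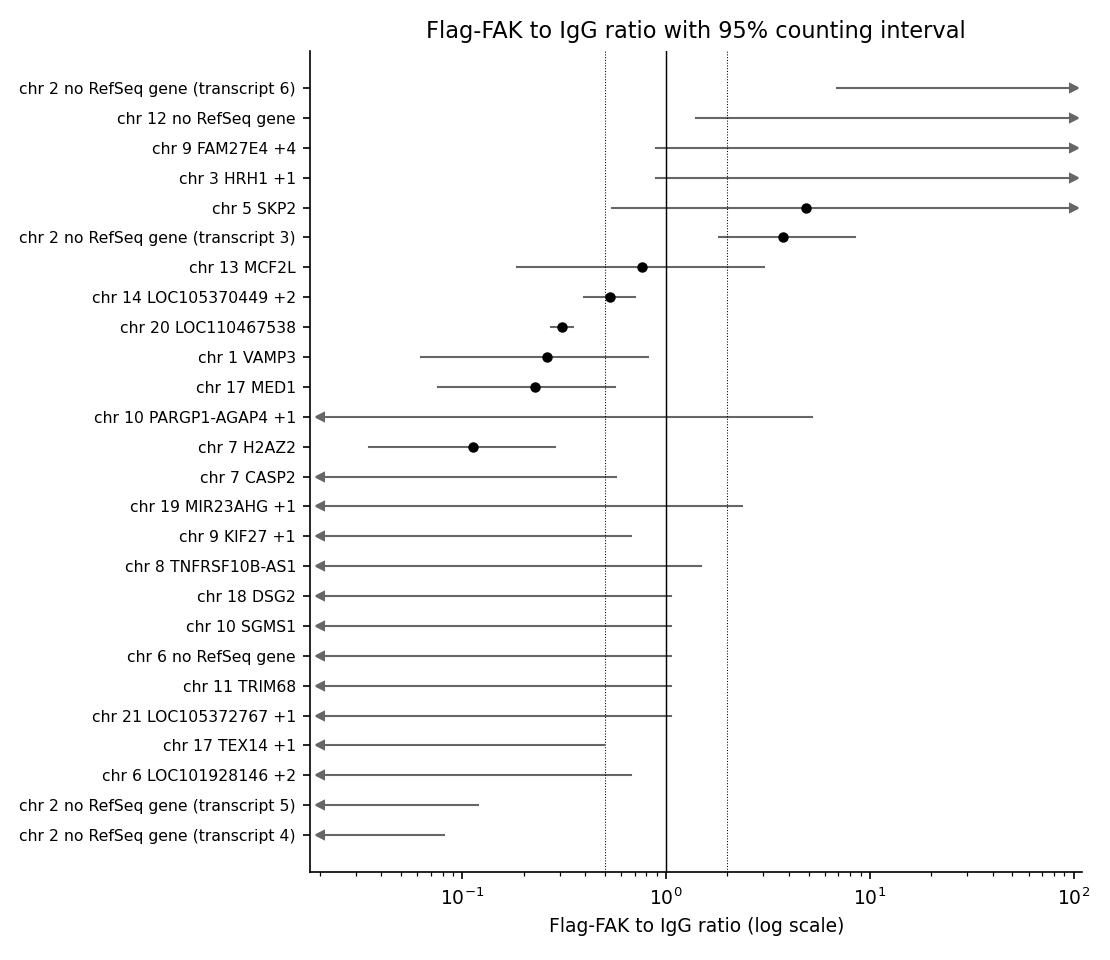
Flag-FAK to IgG ratio on the FPKM scale with its exact 95% counting interval (log axis) for the 26 unnamed transcripts of the plot of precipitate levels, in the same order. Points are shown where both precipitates had reads, arrows mark intervals that run past the axis, the solid line is 1 and the dotted lines are 0.5 and 2. Only 3 intervals lie wholly above 1, and 2 of these are transcripts of the chromosome 2 locus.

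Of the 19 members below 0.5-fold, 10 were seen in IgG only, among them transcripts 4 and 5 of the chromosome 2 locus. A transcript opposite to GCNT2, which encodes a glycosyltransferase, also overlaps the lncRNA gene LOC101928146 on its own strand. It had 7 reads in IgG and 0 in both other libraries, and its Flag-FAK to IgG interval ended at 0.676. Transcripts with 5 reads in IgG only lay opposite to DSG2, a cadherin of desmosomes, and to SGMS1, a sphingomyelin synthase, on TRIM68, and at 2 places without a protein-coding gene on chromosomes 6 and 21. Their intervals ended at 1.06 and thus include 1. A transcript at chr17:58658856-58659231 on TEX14 and a small nuclear RNA gene had 3 reads in Input against 9 in IgG and 0 in Flag-FAK, with an interval up to 0.494, and one on KIF27, a kinesin gene, had 12, 7 and 0. The transcript opposite to MCF2L was among the few seen in all libraries. It had 19 reads in Input against 6 in IgG and 5 in Flag-FAK, giving a ratio of 0.766 (0.185 to 3.01).

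Against Input, most members had a lower FPKM in both precipitates, which had fewer reads than Input. In Flag-FAK over Input, 92 members were counted, of which 8 (8.70%) were above 2-fold, beside 5.33% of all transcripts, and 84 (91.3%) below 0.5-fold, beside 92.7%. In IgG over Input, 97 were counted, of which 13 (13.4%) were above 2-fold, beside 13.4% of all transcripts, and 81 (83.5%) below 0.5-fold, beside 78.8%. Of the 8 and the 13, 4 and 12 had 0 reads in Input and were listed only through a precipitate. The rest, except transcript 3 of the chromosome 2 locus, also reached 1.8 FPKM only in a precipitate. These were transcript 6 of that locus and those at HRH1 and SKP2 for Flag-FAK, and the one on TEX14 for IgG. Of the 84 and the 81, 76 and 69 had 0 reads in the precipitate, so low depth and depletion cannot be told apart for them. The scale also matters. For VAMP3 the IgG to Input ratio was 0.278 (0.146 to 0.498), but 0.935 (0.491 to 1.68) with TPM totals without ribosomal DNA and 7SK. For the transcript at chr20:62621324-62623392 it was 0.0525 (0.0207 to 0.111) and stayed low at 0.177 (0.0697 to 0.375). Among the 8, the transcript with the most Input reads was transcript 3 of the chromosome 2 locus, 2.93-fold higher in Flag-FAK than in Input (1.52 to 6.02).

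Small RNA genes marked only a few members. The classes sought were snRNA, snoRNA, 7SL, Y RNA, RNase P, RNase MRP and vault RNA, with tRNA genes added. A gene of these classes other than tRNA overlapped 2 members, on TEX14 and on chromosome 21, and a pseudogene copy overlapped 3, the U1 copies of chromosome 14, a U6 copy within the longer SH3D19 transcript and a 7SL copy in a transcript that also overlaps DSCC1. Only the chromosome 14 transcript among these had reads in Flag-FAK. Among named transcripts a small RNA gene overlapped 23 of 218 (10.6%), against 1.94% of members. The left-out regions and loci had removed unnamed transcripts by rule, and without them 13 of 208 named transcripts (6.25%) were left.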

How the data were processed

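The files hold, for 1 library each of Input, IgG and Flag-FAK, FPKM values and whole-number read counts that the authors deposited for 334 lncRNA transcripts over 7007 lines, since a transcript is repeated for each target gene. Repeated lines held equal values and were used once. The authors also deposited CPC and CNCI scores, a CPAT coding probability as a fraction, positions and predicted target genes (cis and trans). The submitters' processing notes name StringTie and GRCh38. The aligner, counting step, annotation and FPKM total are not given in the sources used here.

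The members and lists were chosen with earlier results of these data known. Ratios used a pseudocount of 0.1 and a minimum of 0.5 FPKM, with limits of 2 and 0.5. Counting intervals (95%, exact, by Clopper and Pearson) were set on the read ratio and multiplied by the FPKM value of a read, the transcript's own with at least 5 reads in both libraries and otherwise the median. A count of 0 was taken to allow 3 reads. Depth outside ribosomal DNA and 7SK was 13782, 3669 and 1351 reads in Input, IgG and Flag-FAK. Transcripts named in the text are the 6 highest in each library and at each end of the ratio, all with at least 5 Flag-FAK reads, the 3 at each end of each score, and loci with several members. Those on EGFR, FOXJ2, ZCCHC14, VAMP3, SH3D19, SPIN1, H19, MYPN, KIF27, WFS1, DSG2, SGMS1 and TRIM68 and of chromosome 6 were added after their values were seen. RefSeq GRCh38.p14 gave genes by span, with the strand of 79.0% of protein-coding genes known, and the sequences, all 6 miRNA arms and 4 start windows sought being matched. Alternatives were other pseudocounts, minimum values and totals, sums over loci and Input in place of IgG. One counted transcript is not reported singly here. Functions were tested on simulated data. The tools were scipy 1.17.1, pandas 2.3.3, numpy 2.4.6 and matplotlib 3.10.9 under Python 3.11.15.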

Additional observations from a re-analysis of the deposited data

How the results depend on the processing

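No paired analysis was possible because there is only 1 library per condition. The number of unnamed transcripts with a Flag-FAK to IgG ratio above 2, 6, became 2 with at least 0.1 FPKM in both precipitates, which leaves out transcripts at 0, 10 with TPM and 11 with TPM totals without ribosomal DNA and 7SK, and 3 with the counting interval on the same side of 1, an alternative chosen after seeing the data. TPM multiplies the ratios by 2.29 and 2.71 and also makes the minimum and the pseudocount smaller beside the values, so that 36 rather than 27 transcripts were counted. On the same 27 with the scaling alone, also chosen after seeing the data, the numbers were 6 and 7 above and 16 and 16 below. The number above 2-fold was between 4 and 9 with other pseudocounts and minimum values, sums over the locus, Input in place of IgG and all unnamed transcripts. The number below 0.5-fold, 19, became 4 with at least 0.1 FPKM in both, 84 with Input in place of IgG (of the 92 then counted, the cause was not tested) and 11 by the interval, and was between 16 and 24 otherwise. The median level in Input, 2.49 FPKM, became 630 TPM by the change of unit to TPM without ribosomal DNA and 7SK, and the 9 transcripts of chromosome 2 became 4 when loci were counted. The numbers detected in each library, the coding score medians and the transcripts at loci with several members moved by less than 1.5 times under their alternatives. Depth limits the ratios, since 4 of the 6 rested on 7 or fewer Flag-FAK reads.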

Other observations

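The target genes that the authors predicted for each transcript also differed between unnamed and named transcripts. Such predictions rest on position (cis) or on sequence and expression (trans), by a method not given in the sources used here, and none was tested here. Unnamed transcripts had a median of 14 listed trans targets, with quartiles of 4 and 29.5, and named ones a median of 4. The unnamed transcript with the most, 246, lay on SIPA1L2 with 27 reads in Input but 0 in IgG and Flag-FAK. Next were transcripts on HTR1D with 96, opposite to HRH1 with 82 and on MIR23AHG with 79. At least 1 cis target was listed for 60.2% of unnamed and 74.8% of named transcripts, with medians of 1 and 2, and no target at all for 4 and 18 transcripts.

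The 17 unnamed transcripts, at 12 loci, with no RefSeq gene had 246 reads in Input against 100 in IgG and 81 in Flag-FAK, with 13, 5 and 5 of the 17 detected. The locus of 6 transcripts on chromosome 2 alone gave 31, 88 and 64 of these reads.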
